A study of Homo sapiens with 11 samples.

Results

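The 10 genes described here, PHGDH, PSAT1, PSPH, SHMT1, SHMT2, MTHFD1, MTHFD2, MTHFD1L, ALDH1L2 and ASNS, encode the enzymes of serine synthesis, of the folate one-carbon cycle and of asparagine synthesis. They were taken by symbol from 2 count tables that each list 26485 gene symbols, and all 10 had enough counts to be tested at both times. RNA had been sequenced from Caki1-SR, a subline of the human clear cell renal cell carcinoma line Caki-1 that came from a skin metastasis, was made resistant to the kinase inhibitor sunitinib and is kept in 1 µM of it, so every group carried sunitinib. The study's account of the RNA sequencing names a single resistant clone. The ODC groups received the 4 drugs of a combination together for 2 h or 24 h. These were 2 µM of Rapta-C, which contains ruthenium, 1 µM of the EGFR kinase blocker erlotinib, 1 µM of the diabetes drug metformin and 5 µM of parthenolide, a plant lactone. The CTRL groups received none of these, and the study calls them untreated in one place and sham-treated in another. At 24 h there were 3 CTRL libraries (numbered 1, 3 and 5 in the labels) and 3 ODC libraries (2, 4 and 6). At 2 h there were 2 CTRL libraries (1 and 2) and 3 ODC libraries (3, 4 and 5). The titles place the times in different months, so time and month cannot be told apart and levels are not compared between times.

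Serine is made from the glycolytic intermediate 3-phosphoglycerate by PHGDH, PSAT1 and PSPH in turn. SHMT2 in mitochondria and SHMT1 in the cytosol then move a carbon from serine onto tetrahydrofolate, which leaves glycine. In mitochondria MTHFD2 oxidises that carbon, MTHFD1L releases it as formate, and ALDH1L2 can instead burn it to CO2 with a gain of NADPH, while MTHFD1 runs the cytosolic steps that feed purine and thymidylate synthesis. ASNS makes asparagine from aspartate and glutamine. Several of these genes are textbook targets of ATF4, the transcription factor of the integrated stress response, which cells use when amino acids run short.

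Library totals were 17785229 to 20882856 counts at 24 h and 25782895 to 31118349 counts at 2 h. Levels below are CPM, counts relative to the library total, scaled by the TMM method so that most genes match between libraries. The kidney epithelial marker PAX8 and the keratins KRT8 and KRT18 were abundant in every library, whereas CA9 and PAX2, further markers of clear cell carcinoma, stayed at or below 0.155 CPM. At 24 h KRT8 and KRT18 were lower in every ODC library (at most 499.5 and 399.0 CPM) than in every CTRL library (at least 527.4 and 490.7 CPM). Summed endothelial markers reached at most 1.28 CPM and leukocyte markers at most 4.66 CPM. Summed fibroblast markers were 66.6 to 142.3 CPM in CTRL and 115.4 to 169.2 CPM in ODC at 24 h, nearly all of it from COL1A1 and PDGFRB. At each time a library stood apart. CTRL library 1 at 2 h held COL1A2 at 37.6 and COL3A1 at 41.8 CPM, against at most 0.356 CPM of either gene in the other 2 h libraries. It also had counts for 16840 genes, against 15761 to 15973 in those libraries, and 0.0442% of its counts in small structural RNAs, against 0.0227% to 0.0289%. At 24 h, ODC library 6 was far above ODC libraries 2 and 4 in stress genes, with GDF15 at 217.8 CPM against 94.8 and 44.6 CPM and PPP1R15A at 79.0 CPM against 30.0 and 26.3 CPM, and ODC libraries 4 and 6 differed most of all replicates (chi-square 58.0 per gene). These genes were picked out after their values were seen. Summaries are therefore given with and without these libraries, and the part of these marker and library differences in the results was not tested. These are bulk libraries, in which fewer cells of a type and less RNA per cell cannot be told apart.

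At 24 h every one of the 10 genes was lower with ODC, by between 5.71% (MTHFD1) and 49.6% (ASNS) of the CTRL mean. ASNS, ALDH1L2, PSAT1 and PSPH differed most, followed by MTHFD2, PHGDH, SHMT2 and MTHFD1L, and the cytosolic enzymes SHMT1 and MTHFD1 differed least. Together the 10 genes took 0.209%, 0.216% and 0.170% of all counts in CTRL libraries 1, 3 and 5 and 0.131%, 0.141% and 0.126% in ODC libraries 2, 4 and 6. Their median log2 fold change was -0.58, beside 0.00089 over the 12689 genes tested, of which 49.9% were below 0. The unadjusted p was under 0.05 for 7 of the 10 genes, all lower, compared with 5.04% of all genes tested. None of the 10 passed the test, an adjusted p under 0.05 in edgeR's quasi-likelihood fit with Benjamini-Hochberg adjustment over all genes, which called only 24 genes, 3 of them lower (0.0236%). None combined an unadjusted p under 0.05 with a fold of at least 2 either, which 0.575% of all genes did in that direction, but 2 did with upper-quartile scaling, with library size only and in the joint fit of all 11 libraries, and 3, 2 and 1 did without CTRL library 5, ODC library 4 and CTRL library 1. CTRL and ODC libraries did not overlap for 7 of the 10 genes, beside 8.51% of all genes in the lower direction. Without ODC library 6 the median of the 10 genes was -0.54, 8 of the 10 were lower, and 7 again had an unadjusted p under 0.05, all lower.

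**Figure D1:**
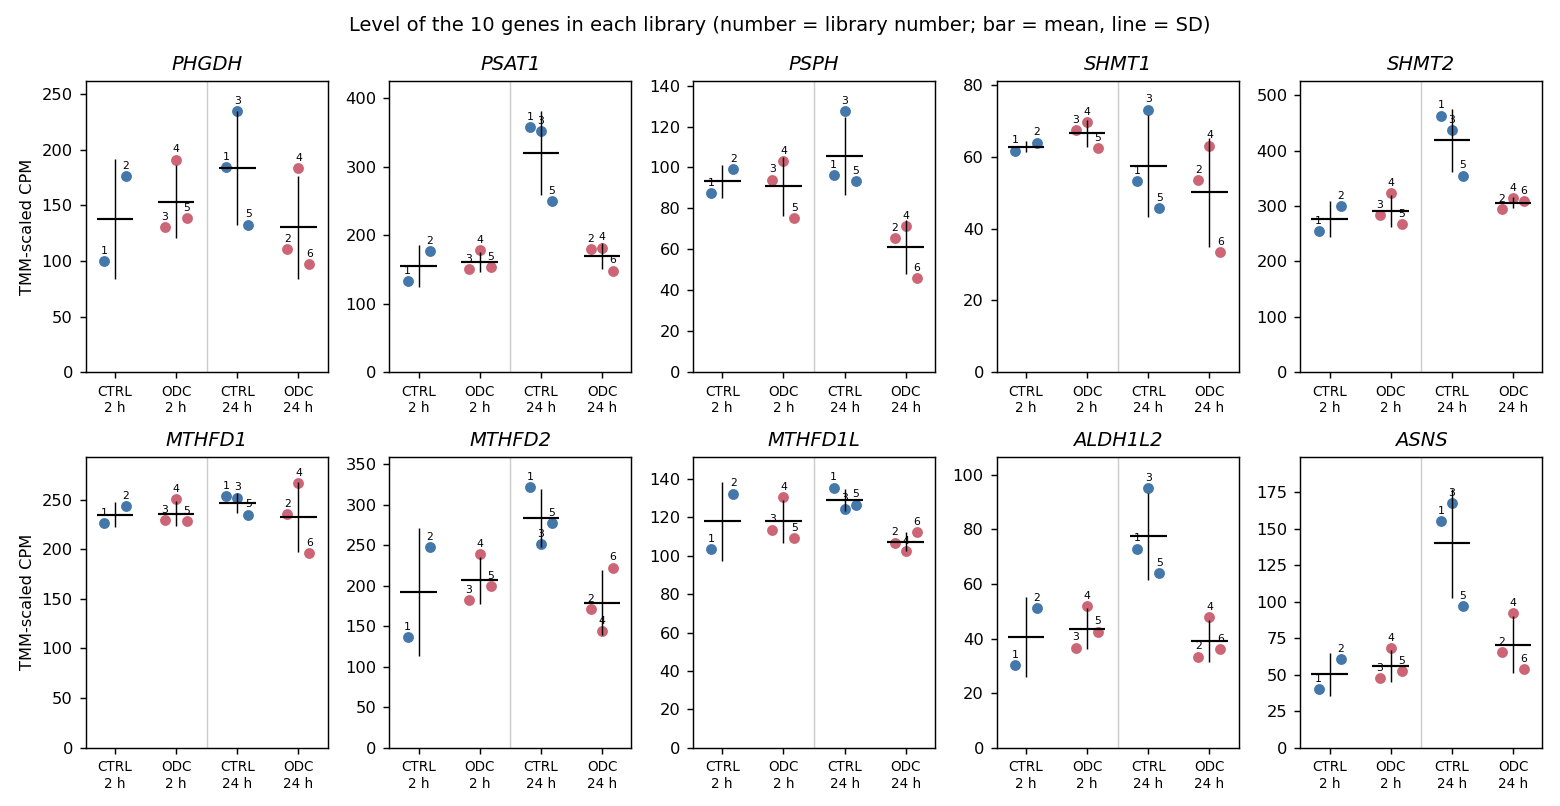
TMM-scaled CPM (vertical axis, linear from 0) of each of the 10 genes in all 11 libraries, with a panel for each gene and groups on the horizontal axis; points carry the library number, bars are group means and lines are SDs. At 24 h all 3 ODC points lie below all 3 CTRL points for PSAT1, PSPH, SHMT2, MTHFD2, MTHFD1L, ALDH1L2 and ASNS, and the points mix for PHGDH, SHMT1 and MTHFD1; at 2 h they mix for all 10.

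PHGDH catalyses the first step of serine synthesis. It was at 184.2, 235.0 and 132.7 CPM in CTRL libraries 1, 3 and 5 and at 110.7, 183.3 and 96.8 CPM in ODC libraries 2, 4 and 6. The groups overlapped, because CTRL library 5 lay below ODC library 4. The log2 fold change was -0.50 ± 0.27 (SE), with a 95% interval of -1.13 to 0.14 and an adjusted p of 0.525. Without CTRL library 3 it was -0.28, without ODC library 6 it was -0.32 and without ODC library 4 it was -0.83. The gene lies on chr1:119648411-119744218 of hg38, on the plus strand.

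PSAT1, the transaminase of the second step, had the smallest p of the 10 genes, in place 60 of the 12689 genes tested. Its levels were 357.5, 352.0 and 249.4 CPM in CTRL and 179.3, 181.8 and 148.0 CPM in ODC, with every ODC library below every CTRL library. The group means were 319.6 ± 60.9 and 169.7 ± 18.8 CPM (SD, n = 3 each), 46.9% lower with ODC. The log2 fold change was -0.91 ± 0.16, with a 95% interval of -1.28 to -0.55, an unadjusted p of 0.000406 and an adjusted p of 0.0859. PSAT1 lies on chr9:78297125-78330093, plus strand.

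PSPH, the phosphatase that releases free serine, stood at 96.3, 127.6 and 93.3 CPM in CTRL and at 65.6, 71.2 and 46.0 CPM in ODC, again without overlap. The fold change was -0.80 ± 0.19 on the log2 scale, and the adjusted p was 0.153. PSPH lies on chr7:56011051-56051604, minus strand. PSAT1 and PSPH have pseudogenes by name in GENCODE that the tables do not list. Their similarity in sequence was not measured, and any reads shared with them would make these levels less certain.

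SHMT2, the mitochondrial enzyme that splits serine, was the most abundant of the 10 per length of transcript. It was at 463.2, 437.5 and 354.6 CPM in CTRL and at 294.6, 314.2 and 308.9 CPM in ODC. The ODC libraries lay within a narrow range below the lowest CTRL library, and the log2 fold change was -0.45 ± 0.11 (adjusted p 0.173). Its cytosolic counterpart SHMT1 was at 53.3, 73.2 and 45.6 CPM in CTRL and at 53.6, 63.1 and 33.5 CPM in ODC. Those groups overlapped, and the difference of -0.20 ± 0.25 was smaller than its error. SHMT2 lies on chr12:57229573-57234935, plus strand, and SHMT1 on chr17:18327860-18363563, minus strand. SHMT1 has a pseudogene by name that the tables do not list.

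MTHFD2, which oxidises the folate-bound carbon in mitochondria, was at 322.1, 251.2 and 277.0 CPM in CTRL and at 170.8, 143.6 and 222.3 CPM in ODC. The groups did not overlap, although ODC library 6 came close to the lowest CTRL library. The log2 fold change was -0.66 ± 0.17, with an adjusted p of 0.176. MTHFD1L, which releases mitochondrial formate, showed a small difference with little spread: 135.5, 124.6 and 126.7 CPM in CTRL and 106.9, 102.5 and 112.6 CPM in ODC. Its log2 fold change was -0.26 ± 0.089 and its adjusted p 0.279. MTHFD1, the cytosolic enzyme with 3 activities, was at 253.5, 251.9 and 234.9 CPM in CTRL and at 235.0, 266.7 and 196.4 CPM in ODC. The highest of these 6 values belonged to an ODC library, and the log2 difference was -0.085 with a 95% interval of -0.37 to 0.20. MTHFD2 lies on chr2:74186172-74217565, MTHFD1L on chr6:150865679-151101887 and MTHFD1 on chr14:64388031-64463457, all on the plus strand. MTHFD2 and MTHFD1 have pseudogenes by name, and the only one in the tables, MTHFD2P1, had at most 2 counts in a 24 h library.

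ALDH1L2, the mitochondrial formyl-tetrahydrofolate dehydrogenase, was the least abundant of the 10 per length and among those that differed most. It was at 73.0, 95.2 and 64.0 CPM in CTRL and at 33.4, 47.9 and 36.0 CPM in ODC. No ODC library reached the lowest CTRL library, and the mean was 49.5% lower. The log2 fold change was -0.99 ± 0.19, with a 95% interval of -1.42 to -0.56 and an adjusted p of 0.0989. ALDH1L2 lies on chr12:105019784-105107643, minus strand.

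ASNS, the asparagine synthetase, was at 155.2, 167.4 and 97.2 CPM in CTRL libraries 1, 3 and 5 and at 65.3, 92.2 and 54.0 CPM in ODC libraries 2, 4 and 6. CTRL library 5 was only a little above ODC library 4, and the groups did not overlap. The log2 fold change was -0.99 ± 0.25, with a 95% interval of -1.56 to -0.42 and an adjusted p of 0.168. ASNS lies on chr7:97851677-97872542, minus strand. It too has pseudogenes by name that the tables do not list.

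**Figure D2:**
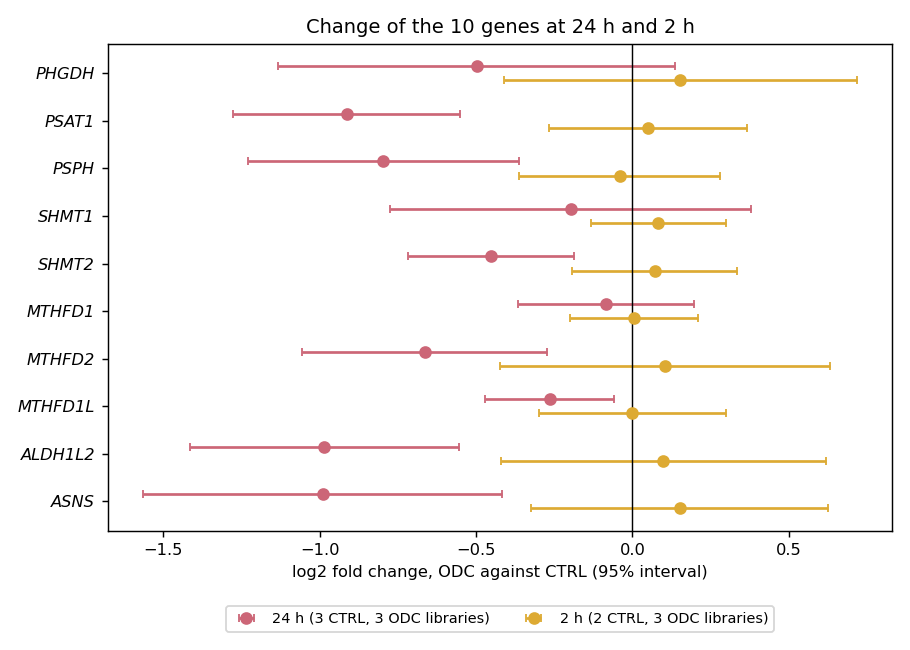
Log2 fold change of ODC against CTRL (horizontal axis) for the 10 genes at 24 h and at 2 h, with the 95% interval of edgeR's quasi-likelihood fit. At 24 h the intervals of 7 genes lie below 0, from MTHFD1L at -0.26 to ASNS at -0.99, and at 2 h all 10 intervals include 0.

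The order of the libraries within a group was shared by many of the 10 genes, but not by all. CTRL library 5 was the lowest CTRL library for 8 of the 10 genes. ODC library 6, next in number, was the lowest ODC library for 6 and the highest for 2. ODC library 4 was the highest ODC library for 8 and the lowest for 2. CTRL library 3, just before it in number, was the highest CTRL library for 5 and the lowest for 2. CTRL library 1 was the highest CTRL library for 5 and the lowest for 0. ODC library 2, next to it in number, was instead the highest ODC library for 0 and the lowest for 2. The labels give no replicate number that both groups share. Library numbers alternate between CTRL and ODC at 24 h, and a second fit took libraries 1 and 2, 3 and 4, and 5 and 6 as pairs. Other pairings were not fitted. With these pairs as a replicate block, 7 of the 10 genes passed the test, all lower, beside 2.06% of all genes called lower. They were PSAT1 (adjusted p 0.00502), ALDH1L2 (0.00523), ASNS (0.00766), PSPH (0.0122), PHGDH (0.0262), MTHFD2 (0.0280) and SHMT2 (0.0453), and MTHFD1L (0.0723), SHMT1 (0.243) and MTHFD1 (0.515) did not pass. The fold changes hardly differed between the fits, as for PHGDH at -0.52 with the block, but the error of PHGDH was 0.086 in place of 0.27. Without pairs, edgeR's likelihood ratio test passed 6 of the 10, beside 1.09% of all genes called lower, and DESeq2 passed 6, beside 1.1%. In both these tests the 6 were PSAT1, PSPH, SHMT2, MTHFD2, ALDH1L2 and ASNS. With any library left out of the quasi-likelihood fit, none of the 10 passed. The labels do not say whether the libraries of a group came from separate cultures, so these p-values measure the spread between libraries, which may be technical.

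**Figure D3:**
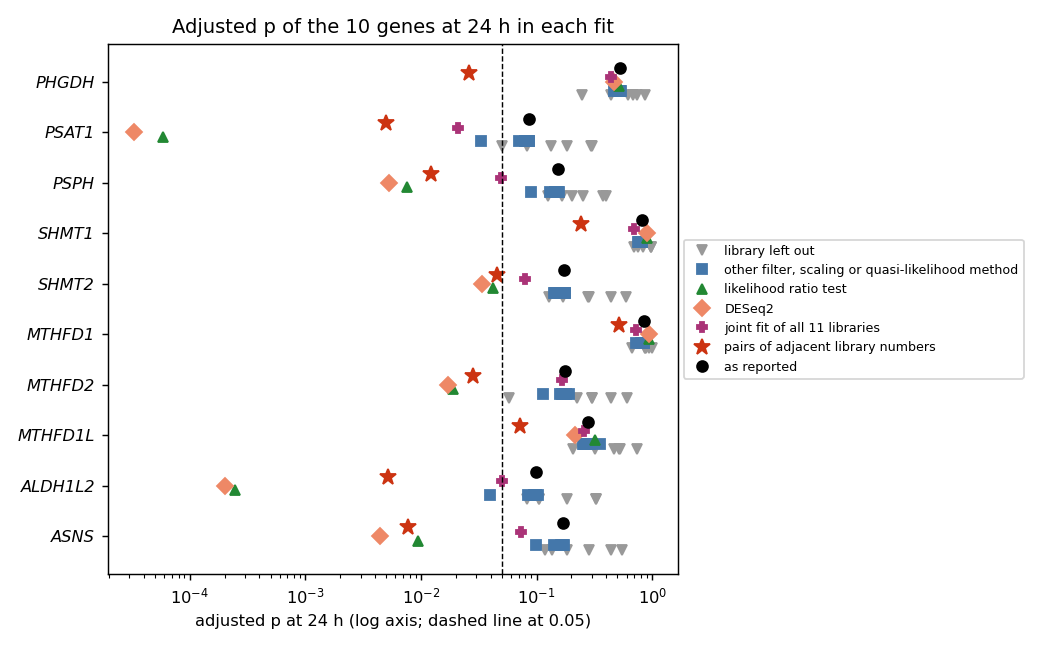
Adjusted p at 24 h (horizontal axis, log scale, dashed line at 0.05) of the 10 genes in each fit; black circles are the values as reported and the other symbols the alternatives. PSAT1 ranges from 3.27e-05 with DESeq2 to 0.303 with a library left out, and SHMT1, MTHFD1 and MTHFD1L stay right of the line in every fit.

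Ratios within a library do not depend on scaling and were taken as a description, with no test. ASNS relative to PHGDH was 0.842, 0.712 and 0.732 in CTRL and 0.590, 0.503 and 0.558 in ODC at 24 h, a difference of -0.47 on the log2 scale with a pooled SD of 0.12. The ratio was lower in every ODC library than in every CTRL library. MTHFD2 relative to MTHFD1 was 1.27, 0.997 and 1.18 in CTRL and 0.727, 0.539 and 1.13 in ODC, where ODC library 6 lay among the CTRL values. SHMT2 relative to SHMT1 was 8.69, 5.98 and 7.77 in CTRL and 5.50, 4.98 and 9.21 in ODC, and those values overlapped.

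Per kilobase of the canonical transcript, the level in CTRL at 24 h was highest for SHMT2 (194.0 ± 26.3 CPM per kb, SD, n = 3) and then PSAT1 (145 ± 27.6), PHGDH (98.6 ± 27.4), MTHFD1 (78.2 ± 3.27), MTHFD2 (64.4 ± 8.15), ASNS (58.7 ± 15.7), PSPH (53.6 ± 9.64), MTHFD1L (37.4 ± 1.69), SHMT1 (22.7 ± 5.62) and ALDH1L2 (10.4 ± 2.17). The ranges of neighbours in this order overlapped between PSAT1 and PHGDH, PHGDH and MTHFD1, MTHFD2 and ASNS, and ASNS and PSPH. With ODC at 24 h SHMT2 was still first at 142 ± 4.68 CPM per kb and ALDH1L2 last at 5.27 ± 1.04. PSAT1 at 76.9 ± 8.54 then overlapped with MTHFD1 at 73.8 ± 11.2, from which it was clear in CTRL. ASNS at 29.6 ± 8.22 ranked below MTHFD1L at 31.1 ± 1.46, the reverse of their order in CTRL, with ranges that overlapped in ODC.

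Since ASNS is the classical ATF4 target, the promoters of the 10 genes were searched for the core of the C/EBP-ATF response element, TGATGNAA, on both strands. RefSeq windows (GRCh38.p14, 250 bases before to 50 after a start) were at hand for 7 genes, PHGDH, PSAT1, SHMT1, MTHFD1, MTHFD2, MTHFD1L and ASNS. ASNS and MTHFD1L held the core in at least 1 window, beside 4.46% of all 27305 genes with a window. Both genes have more than 1 annotated start, and the match depends on the start. Another ASNS window (chr7:97872116-97872415) and another MTHFD1L window (chr6:151006758-151007057) held no core. The MTHFD1L match lay at -129, -90 or 25 relative to its other starts. The 250 bases before a start are shown for ASNS (chr7:97872409-97872658, minus strand), which has the core 68 bases before that start. They are also shown for PSAT1 (chr9:78296875-78297124, plus strand), which has the smallest p and no match. For MTHFD1L (chr6:150866346-150866375, plus strand) 30 bases around the match are shown. Capitals mark the core.
ASNS: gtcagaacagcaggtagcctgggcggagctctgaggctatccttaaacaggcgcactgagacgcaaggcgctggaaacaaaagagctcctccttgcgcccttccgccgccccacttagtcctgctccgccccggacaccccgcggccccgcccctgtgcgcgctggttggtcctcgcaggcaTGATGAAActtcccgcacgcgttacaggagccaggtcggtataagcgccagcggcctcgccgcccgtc
PSAT1: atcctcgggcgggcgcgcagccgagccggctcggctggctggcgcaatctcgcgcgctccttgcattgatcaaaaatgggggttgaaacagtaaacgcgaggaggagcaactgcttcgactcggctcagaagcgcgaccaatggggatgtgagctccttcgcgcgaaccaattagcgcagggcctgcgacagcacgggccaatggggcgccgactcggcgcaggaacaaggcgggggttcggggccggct
MTHFD1L: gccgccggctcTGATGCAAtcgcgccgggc
The antioxidant response element core TGACNNNGC, also searched on both strands, was in the window of MTHFD2 alone of the 7 (16.1% of all genes), and the E-box CACGTG in those of MTHFD1 and MTHFD1L (8.77% of all genes). A match describes letters in these windows only.

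At 2 h the 10 genes gave no difference beyond the spread. Of all genes 312 had an unadjusted p under 0.05 (2.34%) and none of the 10 did, and edgeR's quasi-likelihood fit called 0 of 13332 genes at an adjusted p under 0.05 (edgeR's likelihood ratio test called 5 and DESeq2 1). The groups overlapped for all 10, whereas 15.3% of all genes did not overlap in either direction. ASNS was at 39.9 and 60.7 CPM in CTRL libraries 1 and 2 and at 47.5, 68.0 and 52.2 CPM in ODC libraries 3, 4 and 5, a log2 fold change of 0.15 ± 0.21. PSAT1 was at 132.9 and 176.7 CPM in CTRL and at 150.6, 177.6 and 152.9 CPM in ODC, a log2 fold change of 0.051 ± 0.14. The CTRL libraries thus spanned much of the range of the ODC libraries. ALDH1L2 was at 30.4 and 51.1 CPM in CTRL and at 36.7, 51.8 and 42.5 CPM in ODC, and PSPH at 87.6 and 99.1 CPM in CTRL and at 94.1, 103.1 and 75.1 CPM in ODC. MTHFD2 had the widest gap between the CTRL libraries, 136.6 and 247.8 CPM, and lay at 182.1, 238.5 and 199.3 CPM in ODC. PHGDH was at 99.8 and 176.3 CPM in CTRL and at 130.6, 191.3 and 138.8 CPM in ODC. For MTHFD2 the ODC libraries lay between the CTRL libraries, and for PHGDH 1 of them lay above both. SHMT2 was at 254.2 and 300.2 CPM in CTRL and 284.1, 323.0 and 267.0 CPM in ODC, and MTHFD1L at 103.4 and 132.4 CPM in CTRL and 113.7, 130.7 and 109.4 CPM in ODC. SHMT1 was at 61.8 and 64.0 CPM in CTRL and 67.6, 69.7 and 62.5 CPM in ODC, and MTHFD1 at 226.4 and 243.6 CPM in CTRL and 229.0, 250.2 and 228.0 CPM in ODC. These cytosolic enzymes had the smallest SDs between the CTRL libraries relative to their means, 2.49% for SHMT1 and 5.16% for MTHFD1.

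The direction at 2 h turned on the CTRL library. CTRL library 1, the library with fibroblast collagens, was the lowest of the 5 libraries for 9 of the 10 genes. With all 5 libraries 9 of the 10 genes were higher with ODC and the median log2 fold change was 0.078, without CTRL library 1 it was -0.13 with 9 of the 10 lower, and without CTRL library 2 it was 0.25 with none lower. In that last fit PHGDH, MTHFD2, ALDH1L2 and ASNS had an unadjusted p under 0.05, beside 4.13% of all genes in the higher direction, and none of the 10 passed the test. Leaving out ODC library 4 also gave 9 of the 10 lower, with a median of -0.033. No direction at 2 h is drawn from these values.

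**Figure D4:**
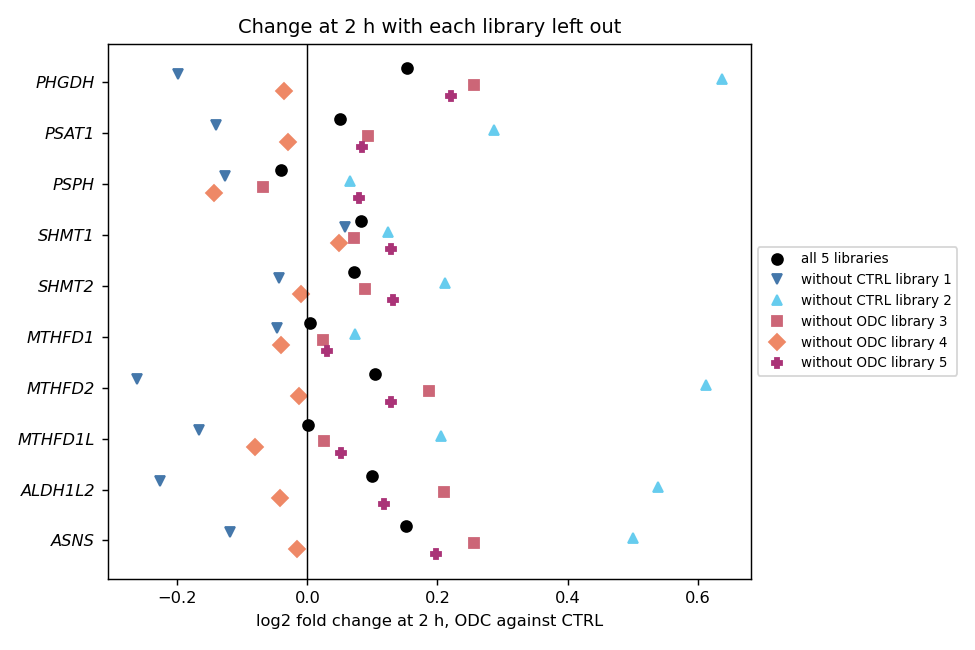
Log2 fold change at 2 h (horizontal axis) of the 10 genes with all 5 libraries and after dropping a single library (symbols). Leaving out CTRL library 1 puts 9 of the 10 genes below 0, and leaving out CTRL library 2 puts all 10 above 0.

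A fit of the 11 libraries together tested whether the effect differed between 24 h and 2 h. The difference was negative for all 10 genes, with a median of -0.72, and 6 of the 10 had an unadjusted p under 0.05, compared with 2.77% of all genes in that direction. They were PSAT1 (-0.98 ± 0.23, unadjusted p 0.00134), ALDH1L2 (-1.10 ± 0.33, 0.00619), ASNS (-1.16 ± 0.37, 0.00945), SHMT2 (-0.54 ± 0.18, 0.0102), PSPH (-0.77 ± 0.27, 0.0132) and MTHFD2 (-0.78 ± 0.33, 0.0355). None passed the test, the smallest adjusted p being 0.490 for PSAT1. PSAT1 alone passed in edgeR's likelihood ratio test (0.0481) and in DESeq2 (0.0455). Without CTRL library 1 of the 2 h set the median was -0.41 and 2 of the 10 had an unadjusted p under 0.05, and without CTRL library 2 the median was -1.02 and 8 did.

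Neighbouring pathways were described with 10 lists of 137 symbols in all. Of the 112 genes tested at 24 h, 57 were higher and 55 lower, 0 passed the quasi-likelihood test, and 10 higher and 16 lower had an unadjusted p under 0.05, beside 7.2% of all genes higher and 5.04% lower. With the replicate block, 6 of the 112 were called higher and 8 lower, beside 3.35% of all genes called higher and 2.06% called lower. The lowest median of a list was -0.30 for the 6 tested transporters of serine, glycine and asparagine, and the highest 0.21 for the 9 genes of glycine cleavage and serine or glycine breakdown. The 7 genes of folate uptake and reduction had a median of -0.0089. The 7 genes listed as other folate enzymes, which include DCTPP1 although it is not a folate enzyme, had one of 0.0062. Medians were -0.11 for the 8 purine synthesis genes and -0.14 for the 11 genes of the methionine cycle and transsulfuration. They were 0.038 for the 15 enzymes of aspartate, glutamine, glutamate and proline and 0.074 for the 8 reported regulators. The 15 glycolytic genes, which include PGAM1, ENO1 and PKM after the serine branch, had a median of 0.061. With a library left out, the transporter median ran from -0.53 (without ODC library 6) to -0.13 (without ODC library 2).

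The 26 tested genes of the integrated stress response had a median of -0.040, with 7 lower and 2 higher at an unadjusted p under 0.05. Its median ran from -0.28 without ODC library 6 to 0.031 without ODC library 2. ATF4 itself was at 347.4, 352.4 and 274.5 CPM in CTRL and at 199.9, 185.8 and 215.2 CPM in ODC, without overlap, with a log2 fold change of -0.70 ± 0.12 and an adjusted p of 0.0876 (0.0248 with the replicate block). CHAC1, which degrades glutathione, was at 29.4, 30.0 and 19.0 CPM in CTRL and at 7.62, 7.73 and 14.8 CPM in ODC, a log2 fold change of -1.38 ± 0.29 (adjusted p 0.125, and 0.0503 with the block). EIF4EBP1, a repressor of translation, differed by -0.64 ± 0.16 on the log2 scale (adjusted p 0.163, and 0.0395 with the block). These ATF4-linked genes lay on the same side as ASNS, but the list was not uniform. ATF3 and GDF15, the pair higher at an unadjusted p under 0.05 and named after their values were seen, were highest in ODC library 6. ATF3, a stress-induced transcription factor, was at 10.4, 9.08 and 12.1 CPM in CTRL and at 22.3, 18.1 and 63.8 CPM in ODC, a log2 fold change of 1.73 ± 0.45 (adjusted p 0.180) that was 0.94 ± 0.18 without ODC library 6. GDF15, a stress-induced secreted factor, was at 57.8, 39.2 and 63.0 CPM in CTRL and at 94.8, 44.6 and 217.8 CPM in ODC, with overlap, a log2 fold change of 1.16 ± 0.49 (adjusted p 0.401) that was 0.39 ± 0.32 without that library. The log2 fold changes of DDIT3 at 0.061 ± 0.30 and SESN2 at -0.0042 ± 0.22, also named after their values were seen, were smaller than their errors. At 2 h CHAC1 was at 3.40 CPM in CTRL library 1 and at 34.3 CPM in CTRL library 2, with ODC at 20.3, 44.6 and 36.2 CPM.

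**Figure D5:**
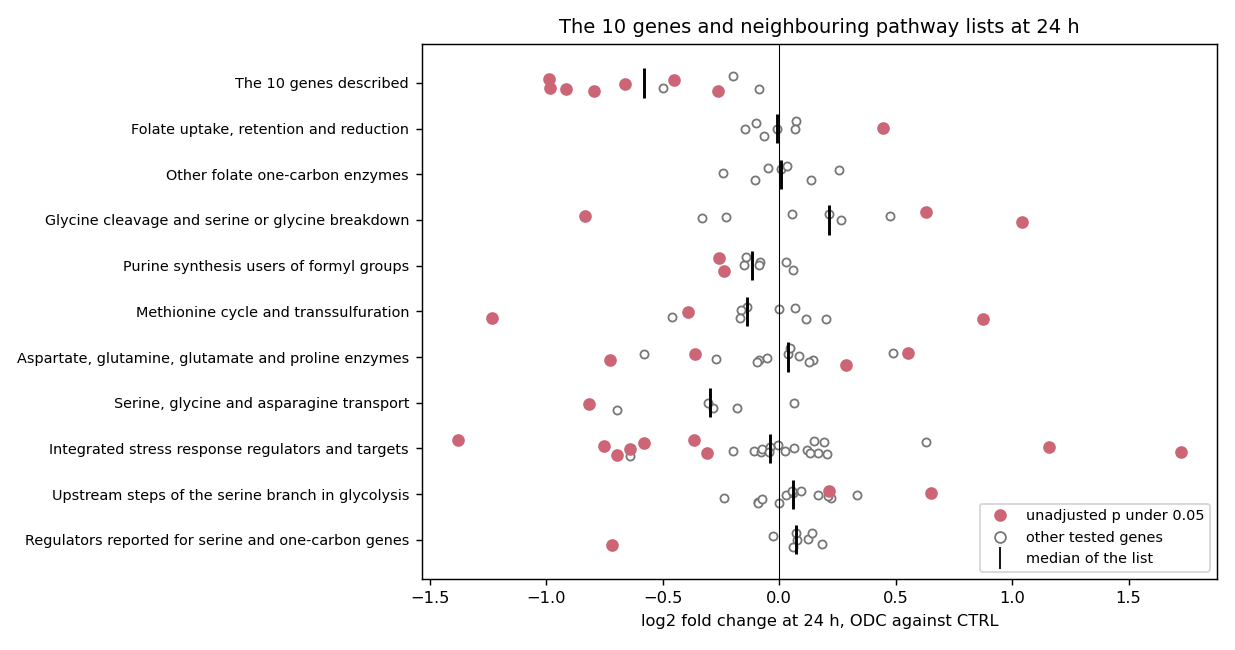
Log2 fold change at 24 h (horizontal axis) of the 10 genes and of each tested gene of the neighbouring lists; filled points have an unadjusted p under 0.05 and vertical bars are list medians. The 10 genes all lie below 0 with a median of -0.58, and the medians of the other lists lie between -0.30 and 0.21. The glycolysis list, labelled as upstream of the serine branch, also holds genes that act after it. The list of other folate one-carbon enzymes also holds DCTPP1, which is not a folate enzyme.

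Among the genes that supply or use the same metabolites, SLC1A4, a transporter of serine and alanine, was at 52.1, 74.2 and 45.6 CPM in CTRL and at 26.3, 41.7 and 29.8 CPM in ODC (log2 fold change -0.81 ± 0.23, adjusted p 0.202). It was called lower with the replicate block (adjusted p 0.0109). GPT2, the mitochondrial alanine transaminase, was at 113.7, 143.8 and 101.2 CPM in CTRL and at 61.0, 82.7 and 73.1 CPM in ODC (-0.73 ± 0.16, adjusted p 0.131, and 0.0147 with the block). CTH, which makes cysteine from cystathionine, was at 23.2, 28.1 and 13.6 CPM in CTRL and at 7.33, 7.67 and 12.6 CPM in ODC (-1.23 ± 0.31, adjusted p 0.163, and 0.0777 with the block). All 3 were lower in every ODC library than in every CTRL library. SREBF1, a regulator of lipid synthesis in the list of reported regulators, differed by -0.72 ± 0.23 (adjusted p 0.264, and 0.0104 with the block). GLUD1, the glutamate dehydrogenase, differed by -0.36 ± 0.092 and MAT2B, a subunit of methionine adenosyltransferase, by -0.39 ± 0.10. Both were called lower with the block (adjusted p 0.0463 and 0.0352). AMT of the glycine cleavage system differed by -0.83 ± 0.36, at low means of 1.26 CPM in CTRL and 0.703 CPM in ODC. The purine synthesis genes PRPS2 and GART differed by -0.26 ± 0.094 and -0.24 ± 0.10. Adjusted p was between 0.316 and 0.408 for AMT, PRPS2 and GART.

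Other neighbours lay on the opposite side. BHMT2, which remethylates homocysteine, was at 12.5, 17.4 and 16.0 CPM in CTRL and at 27.2, 26.5 and 30.4 CPM in ODC (0.88 ± 0.15, adjusted p 0.0859, and 0.0155 with the block). GCAT, a glycine acetyltransferase, differed by 0.63 ± 0.12 (adjusted p 0.0989, and 0.0278 with the block), and SLC19A1, the reduced folate carrier, by 0.44 ± 0.18 (0.365, and 0.0416 with the block). DMGDH, which breaks down dimethylglycine, differed by 1.04 ± 0.35, at low means of 1.61 CPM in CTRL and 3.33 CPM in ODC, with overlap. The glycolytic aldolases ALDOC and ALDOA differed by 0.65 ± 0.20 and 0.21 ± 0.091. Adjusted p was between 0.246 and 0.401 for DMGDH, ALDOC and ALDOA. At 2 h 2 of the 114 list genes tested had an unadjusted p under 0.05, CEBPB with a log2 fold change of 0.34 ± 0.15 and CBS with one of -0.49 ± 0.21, and both had an adjusted p of 1.00.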

How the data were processed

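The authors isolated RNA from Caki1-SR cells, prepared stranded mRNA libraries, aligned the reads to hg38 with STAR and counted reads per gene with HTSeq. The submitters' processing notes name STAR 2.7.0f, HTSeq 0.9.1 and edgeR 3.26.8. The values the authors deposited are raw counts per gene symbol, without normalization or filtering, in a table for each time. The strand setting of the counting is not given in the sources used here. Reads where antisense genes overlap (SMCR8 for SHMT1, NDUFA4L2 for SHMT2, ZBTB25 for MTHFD1, SLC4A5 for MTHFD2) may be wrongly included or lost. The same holds for ALDH1L2, which WASHC4 and NOPCHAP1 overlap on the opposite strand. The tables do not list the symbols WASHC4 and NOPCHAP1, and other names of these genes were not looked up.

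From these counts, ODC was compared with CTRL in a separate fit for each time, using edgeR 4.0.16 under R 4.3.3 (the earlier quasi-likelihood method, two-sided), TMM scaling and filterByExpr (minimum count 10, minimum total 15). The difference between the times was a contrast in a joint fit. SEs were derived from the fold change and its F statistic. P-values were adjusted by the Benjamini-Hochberg method over 12689 genes at 24 h, 13332 at 2 h and 13333 in the joint fit. A level of 3 counts corresponded to 0.0964 to 0.169 CPM, which covers counting error only. The test scripts were checked on simulated data. That check set a bar for changes larger than those of the 10 genes and for false calls. It set none for changes of their size. Replicates differed by more than sampling noise (chi-square per gene 18.7 to 58.0) and each was counted as 1 sample. Samples were grouped by the treatment label.

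Alternatives covered the filter on low counts, the scaling, the test (including DESeq2 1.42.0), a joint fit and each library left out. A replicate block at 24 h paired adjacent library numbers. The labels share no replicate number. The deviations from the group means of log2(CPM + 1) correlated at 0.27, 0.63 and 0.49 within these pairs, all over 0.1. No other pairing of CTRL with ODC libraries was examined, so these values do not single out adjacent numbers. No source says what such a pair has in common. The 10 genes and the neighbouring lists, written from general knowledge, were chosen with earlier results of these data known. All 10 genes are named whatever their values. The rule for the lists took the 3 genes with the smallest p per list and comparison, and of these the text gives those with an unadjusted p under 0.05, apart from a gene that is not reported here. Other genes are marked. Positions and transcript lengths are from GENCODE 44 and promoter windows from RefSeq GRCh38.p14. Figures were drawn with matplotlib 3.10.9.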

Additional observations from a re-analysis of the deposited data

How the results depend on the processing

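At 24 h 0 of the 10 genes had an adjusted p under 0.05 as reported (7 unadjusted), and 2 did with every gene of at least 1 count kept, 6 with the likelihood ratio test, 6 with DESeq2, 2 in the joint fit of all 11 libraries and 7 with the replicate block of adjacent library numbers. Over all genes the count was 24 as reported, 92 with every gene kept, 401 with the likelihood ratio test, 378 with DESeq2, 186 in the joint fit, 686 with the replicate block and 2 to 70 with a library left out (2, 4 and 12 on leaving out CTRL library 1, 3 or 5, and 3 and 70 on leaving out ODC library 2 or 6). At 2 h it was 0 (312 unadjusted), 5 with the likelihood ratio test, 1 with DESeq2 and 0 to 42 with a library left out, and of the 10 genes 0 to 4 then had an unadjusted p under 0.05, with 42 and 4 both without CTRL library 2. For the difference between the times, all genes gave 2 as reported, 7 with every gene kept, 37 with the likelihood ratio test, 38 with DESeq2 and 0 to 4 with a library left out. The 10 genes gave 1 in each of the likelihood ratio test and DESeq2, and between 2 (without CTRL library 1 at 2 h) and 8 (without CTRL library 2 at 2 h) unadjusted with a library left out, against 6 as reported. The cause of these shifts was not tested. No paired analysis was possible at 2 h because 2 CTRL libraries meet 3 ODC libraries and their numbers do not alternate.

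With a library left out at 24 h, the log2 fold change ran from -0.40 to 0.024 for SHMT1 and from -0.20 to 0.023 for MTHFD1, and the other 8 genes stayed below 0, PHGDH between -0.83 and -0.28. At 2 h it ran from -0.20 to 0.64 for PHGDH, -0.14 to 0.29 for PSAT1, -0.14 to 0.080 for PSPH, -0.043 to 0.21 for SHMT2, -0.047 to 0.074 for MTHFD1, -0.26 to 0.61 for MTHFD2, -0.17 to 0.21 for MTHFD1L, -0.23 to 0.54 for ALDH1L2 and -0.12 to 0.50 for ASNS. MTHFD1L at 2 h, 0.00042 as reported, was -0.0016 with more than 1 CPM in at least 3 libraries, -0.00034 with at least 10 counts in every library, -0.0014 with RLE scaling, -0.0025 with library size only and -0.0014 with DESeq2. The log2 ratio differences at 2 h ran from -0.22 to 0.53 for MTHFD2 to MTHFD1, -0.12 to 0.13 for MTHFD1L to MTHFD1 and -0.13 to 0.083 for ASNS to PHGDH with a library left out. With 2 or 3 libraries a group, the number of libraries limits these comparisons.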
